A study of Mus musculus with 26 samples.

Results

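The transforming growth factor beta (TGF-beta) and bone morphogenetic protein (BMP) pathways were examined through 44 genes, chosen by name: ligands, latent TGF-beta binding proteins, extracellular antagonists and proteases, receptors, SMADs, inhibitors of the SMADs and target genes. All 44 were found among the 45318 genes counted, and 40 of them had enough counts to be tested, among 15023 tested genes. Bmp2, Bmp4, Grem1 and Chrd were not tested. Bmp2 had no count in any library, and the other 3 were at or below 0.421 CPM in every library. CPM stands for counts scaled to a common library size, with sizes corrected by the TMM method.

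The cells were 4T1 cells, a mammary tumor line from BALB/c mice, grown in DMEM with serum and antibiotics in every group. Polyadenylated RNA was sequenced from 2 libraries of wild-type control cells, which carry a guide RNA against Renilla luciferase, and from 7 libraries of MaTAR25-/- cells, 3 of the clone KO1 and 4 of the clone KO2. MaTAR25 is a nuclear long noncoding RNA gene of chromosome 2, and both clones were derived from single cells after CRISPR/Cas9 deletion over its transcription start site. Each knockout group is therefore 1 clone. The study picked its control cells as clones too, and the labels do not say whether the control libraries come from 1 clone or several. No source states that the libraries of a group came from separate cultures, so the p-values measure the spread between these libraries only. The second measurement was chromatin isolation by RNA purification (ChIRP), which gives the genomic regions recovered with oligonucleotides against MaTAR25, in 4T1 cells and in cells of the MMTV-Neu-NDL mammary tumor model. The labels of the latter samples disagree, since their titles name NDL and their genotype field MMTV-PyMT, and the name of the titles and the study is used here.

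Gene counts ranged from 25367211 to 61110585 per library. MaTAR25, listed as 1200007C13Rik, was at 0.768 and 0.915 CPM in the control libraries and between 0 and 0.307 CPM in the 7 KO libraries (log2 fold change -2.63, edgeR adjusted p = 0.0561). Without either control library that call was lost. All 8 epithelial markers were detected, and their summed level was 5490 to 5655 CPM in control cells, 6804 to 8455 CPM in KO1 and 2768 to 5007 CPM in KO2. Of 7 fibroblast markers 5 were at 0 in every library, and the summed level of the list stayed at or below 46.9 CPM. Macrophage markers summed to at most 29.5 CPM, and endothelial, T cell and adipocyte markers to at most 3.64 CPM in any library. The median log2 fold change of all tested genes was between -0.02 and 0.06 in every comparison.

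In both pathways a dimeric ligand brings type II and type I receptor kinases together, and the type I receptor phosphorylates receptor SMADs, which enter the nucleus with SMAD4. TGF-beta and activin receptors mainly use SMAD2 and SMAD3, and BMP receptors use SMAD1 and SMAD5. The inhibitory SMADs and the corepressors SKI and SKIL limit the response. The inhibitory SMADs and SKIL are themselves targets of the pathway, while the ID proteins are classical targets of BMP signalling. In mammary tumor cells TGF-beta is known both as a growth inhibitor and as a promoter of invasion.

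The members spanned a wide range of levels. Per kb of annotated exon, the highest mean levels in control cells were those of Ltbp3, which encodes a latent TGF-beta binding protein (103 CPM per kb), and of Bmp1, a secreted metalloprotease that cleaves matrix proteins and BMP antagonists (58.5 CPM per kb). Smurf1 (41.9 CPM per kb), Smad3 (39.4 CPM per kb) and Id3 (35.5 CPM per kb) followed. Tgfbr3 was lowest among the tested members, at 0.00867 CPM per kb. Of the TGF-beta ligands, Tgfb3 had the highest level per kb in control cells (17.0), above Tgfb1 (6.36) and Tgfb2 (4.15). Id2 stood 35th of the 44 members in control cells, at 0.953 CPM per kb, and reached 5.49 in KO1 and 23.1 in KO2.

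**Figure D1:**
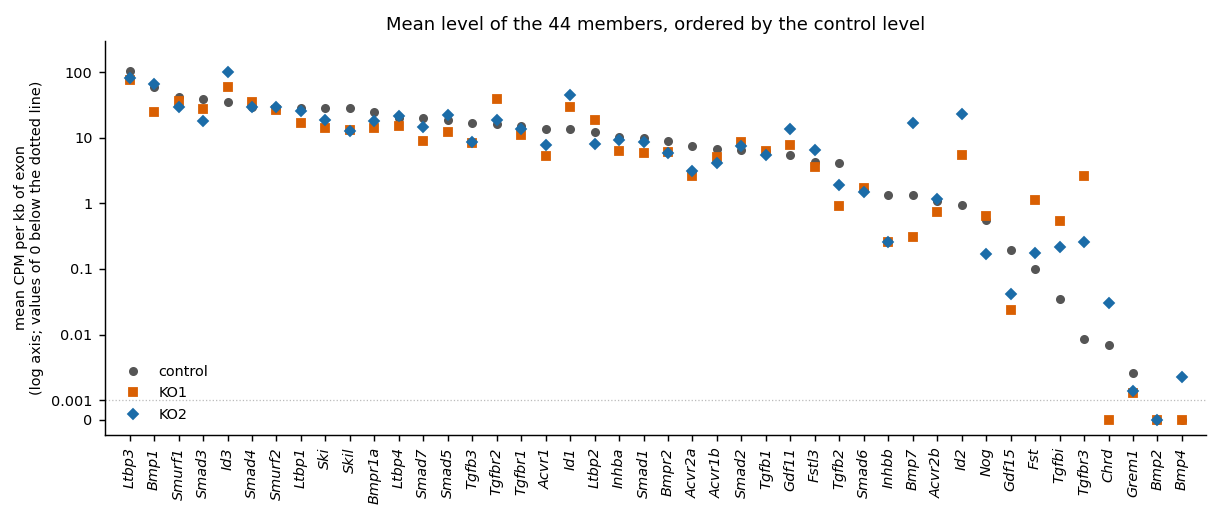
Mean level of each of the 44 genes in CPM per kb of exon (log axis, values of 0 drawn below the dotted line), ordered by the level in control cells, with 1 symbol per group (2 control, 3 KO1 and 4 KO2 libraries). The groups lie close together for most genes of high level, whereas Id2, Bmp7, Fst, Tgfbi and Tgfbr3 are spread widely, with Id2 at 0.953 in control cells and 23.1 in KO2.

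To ask which genes of the pathway changed with the loss of MaTAR25, the libraries of both clones (7) were set as 1 group against those of control cells (2). Of the 40 tested members, 12 passed the adjusted p of 0.1 (30%), beside 22.6% of all tested genes. The inhibitors Smad7, Ski and Skil, the receptors Acvr1 and Acvr2a and the ligands Tgfb3, Inhbb and Gdf15 fell. The target genes Id1, Id2 and Id3 and the co-receptor Tgfbr3 rose. Thus 8 members (20%) were lower, beside 10.7% of all tested genes, and 4 (10%) were higher, beside 11.9%. The libraries of the 2 groups did not overlap in 18 of the 40 members (45%), beside 34.4% of all tested genes. The median log2 fold change of the members was -0.30 and that of all tested genes 0.06. Leaving out control replicate 1 or control replicate 2 reduced the members called to 2 in each case, Acvr2a and Skil, and the share of all tested genes called to 2.95% or 3.61%, so the other 10 calls need both control libraries. In bulk RNA a fall of a gene in fewer cells and a fall per cell cannot be told apart.

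**Figure D2:**
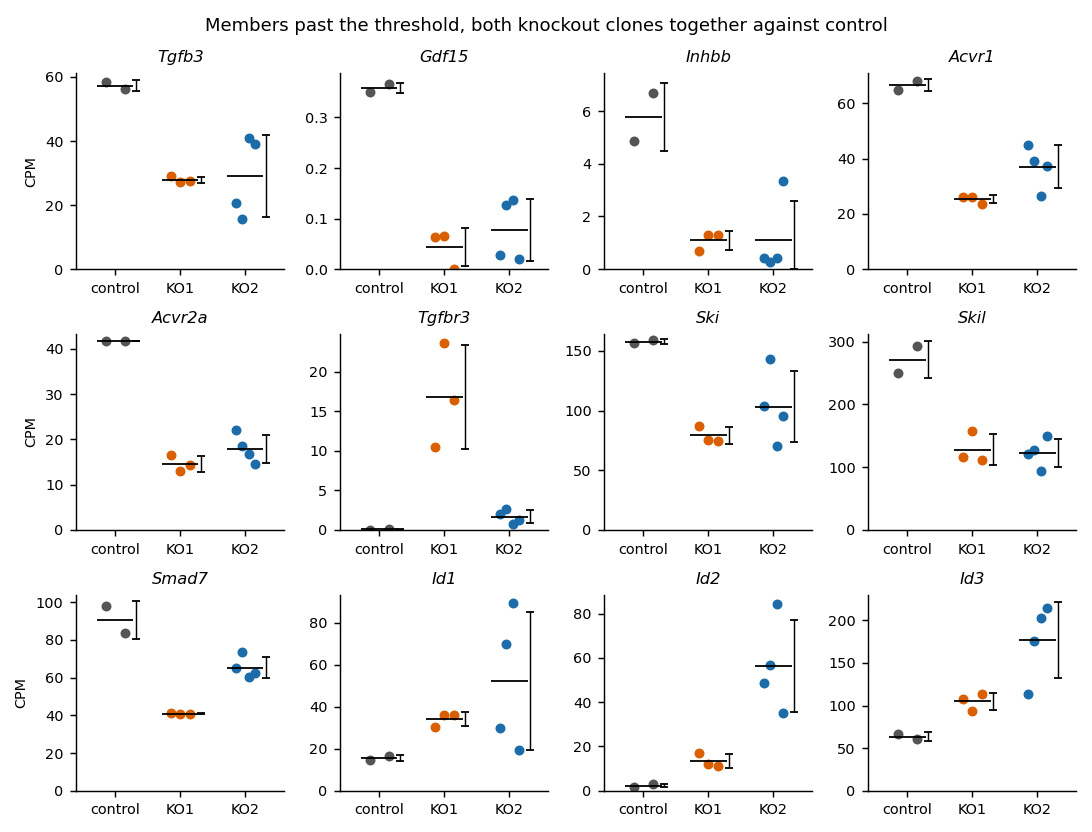
CPM in each library (points) of the 12 genes that passed the threshold between KO and control cells, with the group mean (line) and SD (bar) for 2 control, 3 KO1 and 4 KO2 libraries, each panel starting at 0. All KO libraries of Skil, Smad7 and Acvr2a lie below both control libraries, and all KO libraries of Id1, Id2 and Id3 lie above them.

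Each clone was then set against control cells on its own. These 2 comparisons share the same 2 control libraries, so a deviation of a control library enters both. In KO1, 19 of the 40 members passed (47.5%, beside 31.6% of all tested genes), 6 higher (15%, beside 15.9%) and 13 lower (32.5%, beside 15.7%), with a median log2 fold change of -0.46. In KO2, 14 passed (35%, beside 31.4%), 5 higher (12.5%, beside 16.5%) and 9 lower (22.5%, beside 15%), with a median of -0.17. Without control replicate 1 these counts were 9 and 6, in fits that called 9.46% and 8.72% of all tested genes. Without control replicate 2 they were 8 and 5, in fits that called 11.1% and 9.15%. The libraries did not overlap with control libraries in 30 members in KO1 (75%, beside 66.9% of all tested genes) and in 20 members in KO2 (50%, beside 46.9%).

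**Figure D3:**
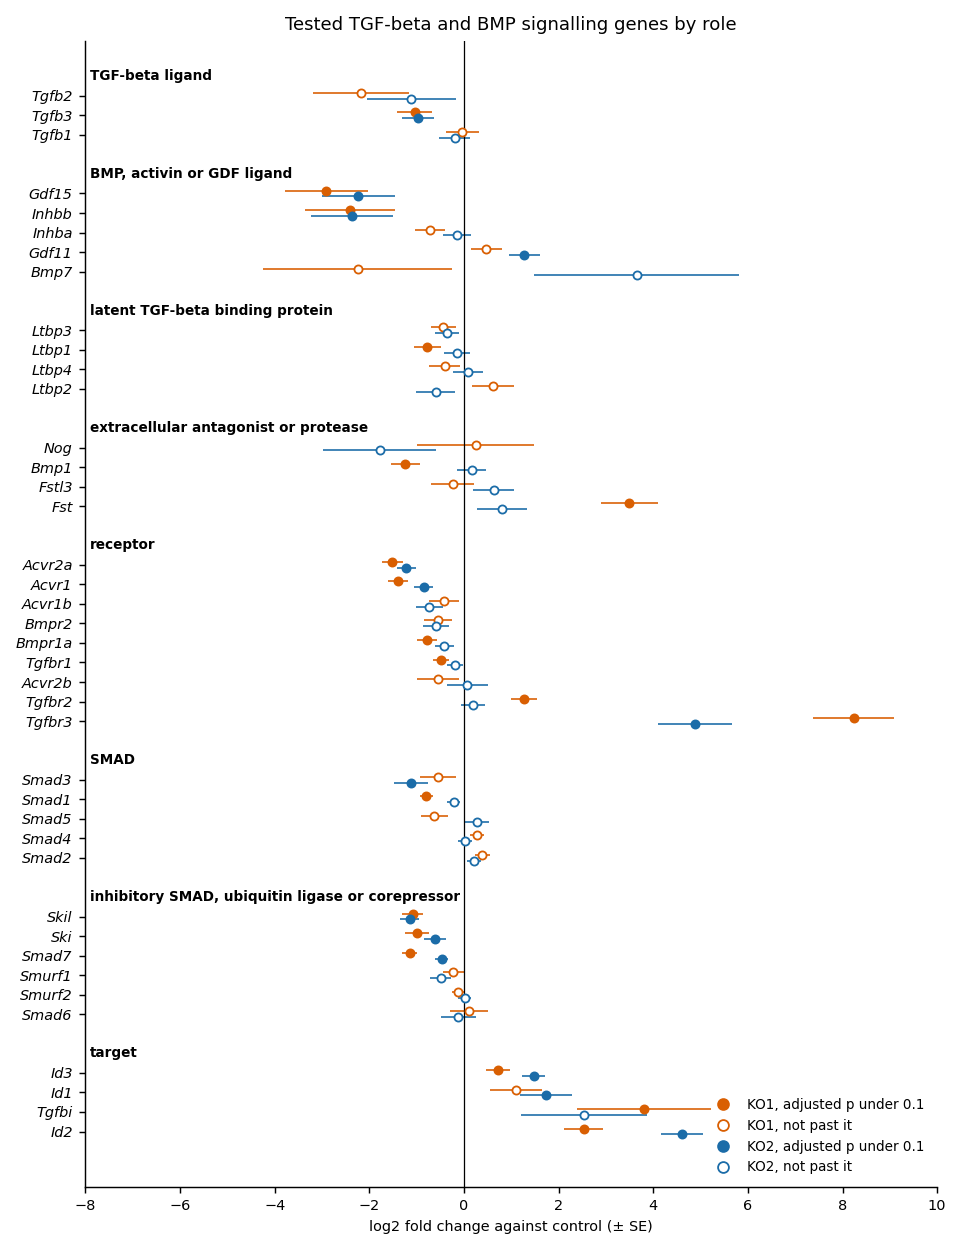
Log2 fold change against control with its standard error for the 40 tested genes, grouped by role, for KO1 and KO2 separately (both use the same 2 control libraries); filled circles passed the adjusted p of 0.1. The receptor group runs from -1.52 for Acvr2a to 8.23 for Tgfbr3 in KO1, and the 4 target genes lie to the right of 0 in both clones.

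The 3 TGF-beta ligands signal through the receptors TGFBR2 and TGFBR1. Only Tgfb3 passed the test among them. It was at 58.5 and 56.2 CPM in control libraries, at 29.0, 27.1 and 27.4 CPM in KO1 and at 20.5, 15.7, 40.8 and 39.1 CPM in KO2. Every KO library was below both controls, and the fold change on the log2 scale was -1.01 ± 0.30 (SE, adjusted p = 0.0497). Tgfb1, the most studied ligand of the family, was at 32.4 and 31.7 CPM in control libraries, at 21.8, 43.2 and 28.9 CPM in KO1 and at 29.3, 16.8, 28.1 and 37.5 CPM in KO2. Its KO libraries lay on both sides of the control libraries (log2 fold change -0.13 ± 0.30 SE, adjusted p = 0.813). Tgfb2 ranged from 1.33 to 26.9 CPM over the KO libraries, against 27.5 and 20.5 CPM in control libraries, and its difference did not pass (adjusted p = 0.276).

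Among the BMP, activin and GDF ligands 2 of 5 tested genes fell (40%, beside 10.7% of all tested genes), and both were lowly expressed. Inhbb, the beta B subunit of activins and inhibins, was at 4.87 and 6.71 CPM in control libraries, at 0.685, 1.29 and 1.30 CPM in KO1 and at 0.418, 0.253, 0.407 and 3.33 CPM in KO2. KO2 replicate 4 stood above the other KO libraries but below both controls, and the log2 fold change was -2.39 ± 0.74 (SE, adjusted p = 0.0565). In KO2 alone it was -2.36 (adjusted p = 0.0776), and of the 6 fits with 1 library left out only that without KO2 replicate 4 kept the call (-3.98, adjusted p = 0.00201), while the other fits gave an adjusted p of up to 0.296. Gdf15, a stress-induced and distant member of the family, was at 0.351 and 0.366 CPM in control libraries, between 0 and 0.0663 CPM in KO1 and between 0.0204 and 0.136 CPM in KO2. These levels rest on 28 counts in control cells, 6 in KO1 and 11 in KO2. The ratio of the summed counts, scaled to library size, was 0.129 in KO1 (95% exact interval 0.0438 to 0.318, counting error only) and 0.201 in KO2 (0.0905 to 0.417), and the fitted log2 fold change over both was -2.49 ± 0.73 (SE, adjusted p = 0.0455). Inhba, the activin beta A subunit, did not pass the test (adjusted p = 0.474). Gdf11 and Bmp7 differed between the clones and are described with them.

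None of the 4 latent TGF-beta binding protein genes and none of the 4 tested antagonist and protease genes passed between KO and control cells. In KO1 alone Ltbp1 fell (log2 fold change -0.77 ± 0.29 SE, adjusted p = 0.0819), from 312 and 296 CPM in control libraries to 157, 159 and 218 CPM. The BMP antagonist Nog was between 0.0541 and 2.85 CPM over all libraries, and the activin antagonist Fstl3 between 6.35 and 23.5 CPM, with groups that overlapped in both genes.

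Of the 9 receptor genes 2 fell (22.2%, beside 10.7% of all tested genes) and 1 rose (11.1%, beside 11.9%). Acvr2a, a type II receptor for activins and BMPs, was at 41.8 CPM in both control libraries, at 16.5, 13.1 and 14.3 CPM in KO1 and at 22.0, 18.5, 16.7 and 14.6 CPM in KO2. The highest KO library was far below the controls, and the log2 fold change was -1.34 ± 0.20 (SE, adjusted p = 0.00359). With each library left out in turn the adjusted p ranged from 0.00344 to 0.0719. Acvr1, a type I receptor of BMPs also known as ALK2, was at 65.0 and 68.0 CPM in control libraries, at 26.1, 26.2 and 23.7 CPM in KO1 and at 45.0, 39.2, 26.3 and 37.2 CPM in KO2 (log2 fold change -1.06 ± 0.24 SE, adjusted p = 0.0182). The 2 genes lie on chromosome 2, at 48814109 to 48903269 (plus strand) and 58388644 to 58567157 (minus strand) in GRCm38. MaTAR25 lies on the same chromosome, at 167827693 to 167833646. Other members of this chromosome lie nearer to it, among them Id1, which rose (152736251 to 152737410), and Bmp7, which differed between the clones (172868012 to 172940321).

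Tgfbr3, which encodes betaglycan, a co-receptor that presents TGF-beta to TGFBR2, was the member with the highest fold change. The control libraries held 1 and 3 of its counts (0.0220 and 0.0915 CPM), whereas the gene was at 10.5, 23.6 and 16.4 CPM in KO1 and at 1.98, 2.61, 0.791 and 1.29 CPM in KO2. All KO libraries were above the controls, and KO1 was above KO2 without overlap. The ratio of the summed counts to control was 298 in KO1 (95% exact interval 116 to 1094, counting error only) and 29.6 in KO2 (11.4 to 110). The fitted log2 fold change over both clones was 7.17 ± 1.94 (SE, adjusted p = 0.0335), and it lay between 6.44 and 8.36 with each library left out in turn. It depends on the 4 control counts.

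Tgfbr2 and Tgfbr1, the type II and type I receptors of TGF-beta, did not pass with the clones as 1 group (log2 fold changes 0.76 ± 0.45 SE and -0.31 ± 0.18 SE, adjusted p = 0.277 and 0.276). Tgfbr1 was at 101 and 98.1 CPM in control libraries and between 55.6 and 92.6 CPM in the 7 KO libraries, without overlap. In KO1 its fall passed the test (-0.48 ± 0.18 SE, adjusted p = 0.0753), but 2 of the 5 fits with 1 library left out kept that call, and without KO1 replicate 1 the value was -0.33. In KO1 the BMP type I receptor gene Bmpr1a fell as well (-0.79 ± 0.22 SE, adjusted p = 0.0283), from 156 and 153 CPM in control libraries to 88.3, 97.0 and 84.0 CPM. The remaining receptors Acvr1b, Acvr2b and Bmpr2 did not pass in any comparison.

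No receptor SMAD and not Smad4 passed between KO and control cells. Smad3, which carries TGF-beta and activin signals, was at 233 and 204 CPM in control libraries, at 107, 175 and 168 CPM in KO1 and at 146, 77.2, 53.4 and 124 CPM in KO2. All KO libraries were lower, but the difference did not pass (log2 fold change -0.84 ± 0.37 SE, adjusted p = 0.148). In KO2 alone it passed (-1.12 ± 0.35 SE, adjusted p = 0.0475). Smad2 was at 57.9 and 57.0 CPM in control libraries and between 63.7 and 86.1 CPM in KO libraries, and Smad4 between 98.5 and 138 CPM over all libraries, neither with a difference that passed.

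The genes that restrain SMAD signalling fell in part. Skil, which encodes the corepressor SnoN, was at 250.04 and 293 CPM in control libraries, at 116, 157 and 111 CPM in KO1 and at 121, 128, 93.3 and 149 CPM in KO2. All KO libraries were near the same level and well below the controls, and the log2 fold change was -1.12 ± 0.18 (SE, adjusted p = 0.00465). Ski, the related corepressor, was at 156 and 159 CPM in control libraries, at 87.2, 75.6 and 74.7 CPM in KO1 and at 104, 143, 70.5 and 95.8 CPM in KO2 (-0.76 ± 0.24 SE, adjusted p = 0.0591). KO2 replicate 2 came close to the controls.

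Smad7, which binds type I receptors and brings ubiquitin ligases to them, was at 97.8 and 83.5 CPM in control libraries, at 41.3, 40.6 and 40.6 CPM in KO1 and at 65.2, 73.3, 60.2 and 62.3 CPM in KO2. The clones formed separate steps below the controls. Over both clones the log2 fold change was -0.73 ± 0.25 (SE, adjusted p = 0.0753), and leaving out any 1 of the 3 KO1 libraries or of the 2 control libraries ended the call (adjusted p up to 0.435). In KO1 it was -1.15 ± 0.15 (adjusted p = 0.00140), and all 5 fits with 1 of the libraries compared left out kept this call. Smad6, the other inhibitory SMAD, was between 2.99 and 6.81 CPM over all libraries. The ubiquitin ligase genes Smurf1 and Smurf2 were between 167 and 280 CPM and between 151 and 199 CPM, and none of these 3 genes passed in any comparison.

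The ID genes encode helix-loop-helix proteins without a DNA-binding domain, which hold back the bHLH transcription factors of differentiation. Id2 was at 1.78 and 2.87 CPM in control libraries, at 17.0, 12.01 and 11.1 CPM in KO1 and at 48.8, 56.9, 84.3 and 35.1 CPM in KO2. The 3 groups did not overlap, and the log2 fold change was 4.03 ± 0.94 (SE, adjusted p = 0.0190) over both clones, 2.53 ± 0.41 for KO1 alone (adjusted p = 0.00352) and 4.60 ± 0.45 for KO2 alone (adjusted p = 0.000566). In the separate fits of KO1 and KO2 the calls held with each library left out in turn, with the highest adjusted p at 0.0559 and 0.0126. In GRCm38 Id2 occupies positions 25093799 to 25097140 of chromosome 12 (minus strand).

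Id3 was the ID gene with the highest level, at 67.1 and 60.2 CPM in control libraries, at 108, 93.5 and 113 CPM in KO1 and at 114, 176, 202 and 215 CPM in KO2. All KO libraries were above the controls (log2 fold change 1.20 ± 0.35 SE, adjusted p = 0.0459). Id1 was at 14.8 and 16.7 CPM in control libraries, at 30.2, 35.9 and 35.8 CPM in KO1 and at 30.01, 70.0, 89.3 and 19.4 CPM in KO2. The KO libraries were again all above the controls, but the KO2 libraries were spread over a wide range, and the call was close to the threshold (1.49 ± 0.55 SE, adjusted p = 0.0976). Tgfbi, a matrix protein induced by TGF-beta, was at 0.263 and 0 CPM in control libraries and at 1.51, 2.45 and 2.08 CPM in KO1, where it rose (adjusted p = 0.0801). Its 4 KO2 libraries ran from 0.102 to 2.42 CPM, and it did not pass there (adjusted p = 0.196). Summed over Id1, Id2 and Id3, the level was 83.6 and 79.8 CPM in the control libraries, 141 to 160.2 CPM in KO1 and 193 to 376 CPM in KO2.

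The clones were then compared with each other, a contrast that uses the control libraries only for the estimate of spread. Here 13 of the 40 members passed (32.5%, beside 19.6% of all tested genes), 4 higher in KO1 (10%, beside 9.43%) and 9 lower (22.5%, beside 10.2%). The KO1 and KO2 libraries did not overlap in 12 members (30%, beside 24.5%), and the median log2 fold change of KO1 over KO2 was -0.30. Higher in KO1 were the receptors Tgfbr2 and Tgfbr3, Fst and Ltbp2. Lower in KO1 were Bmp1, Bmp7, Gdf11, Acvr1, Smad1, Smad5, Smad7, Id2 and Id3. Without KO1 replicate 1 the count was 8, in a fit that called 9.57% of all tested genes. Leaving out KO1 replicate 2 gave 7, in a fit that called 5.79%. The same 7 members were called in each of the fits that left out 1 KO library: Bmp1, Fst, Id2, Smad1, Smad7, Tgfbr2 and Tgfbr3. The summed epithelial marker level also differed between the clones, as given above, and its part in these differences was not tested.

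**Figure D4:**
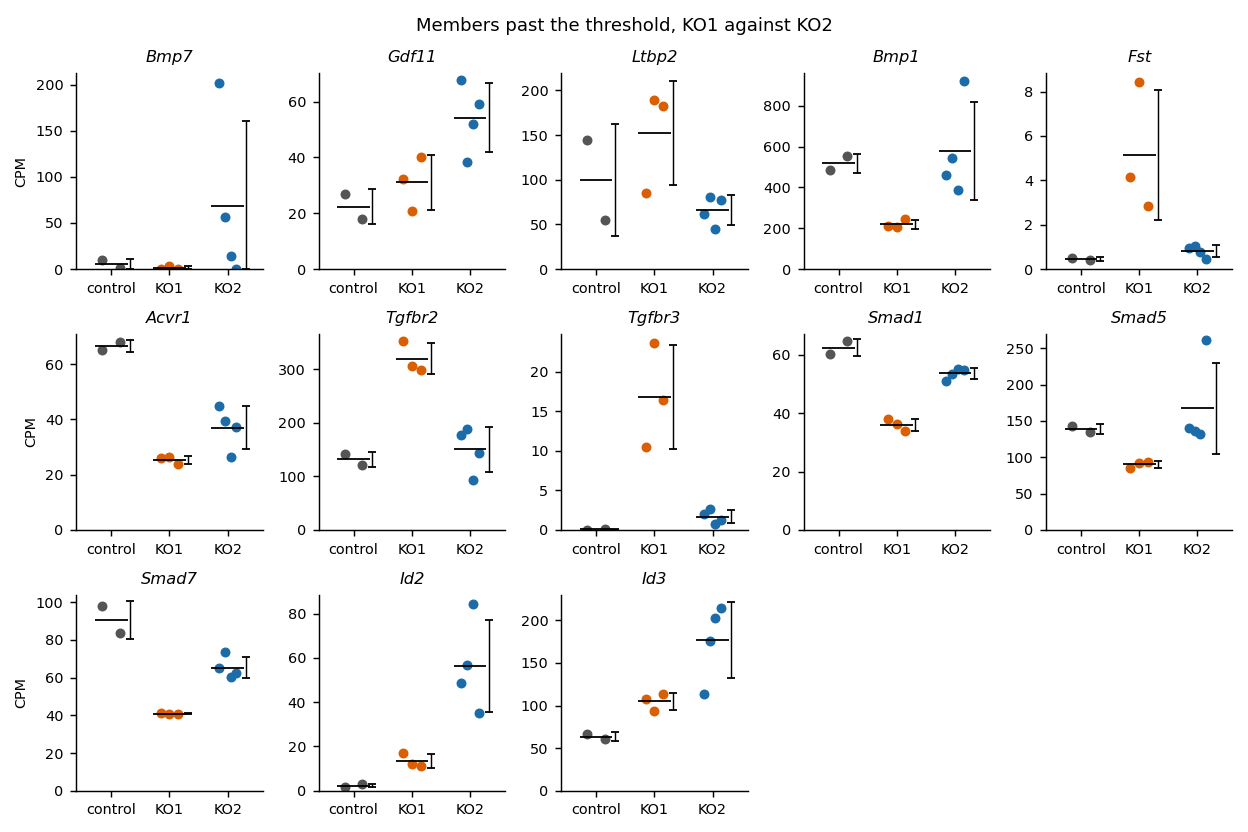
CPM in each library (points) of the 13 genes that passed the threshold between KO1 and KO2, with the group mean (line) and SD (bar, cut at 0), for 2 control, 3 KO1 and 4 KO2 libraries, each panel starting at 0. Bmp1 is lower in KO1 with KO2 around control, and Smad1 is lowest in KO1 with all KO2 libraries a little below control. Tgfbr2 is higher in KO1 with KO2 near control, and Smad7, Acvr1, Id2 and Id3 form steps.

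Tgfbr2 was at 142 and 121 CPM in control libraries, at 353, 306 and 299.5 CPM in KO1 and at 177, 188, 92.8 and 144 CPM in KO2. The KO2 libraries surrounded the controls, and KO1 stood above both groups (KO1 over KO2, log2 fold change 1.09 ± 0.22 SE, adjusted p = 0.0175; KO1 over control, 1.28 ± 0.27 SE, adjusted p = 0.0110). Fst, the activin antagonist follistatin, was at 0.505 and 0.397 CPM in control libraries, at 4.13, 8.43 and 2.84 CPM in KO1 and at 0.948, 1.05, 0.746 and 0.450 CPM in KO2. It was higher in KO1 than in KO2 by 2.69 ± 0.44 on the log2 scale (SE, adjusted p = 0.00905) and than in control cells by 3.49 ± 0.61 (adjusted p = 0.00470). For Tgfbr3 the log2 difference of the clones was 3.34 ± 0.47 (SE, adjusted p = 0.00506). Ltbp2 was at 144 and 55.4 CPM in the control libraries, which lay further apart than its 4 KO2 libraries (44.9 to 80.5 CPM), and at 85.5, 189.7 and 182 CPM in KO1 (KO1 over KO2, 1.21 ± 0.37 SE, adjusted p = 0.0635).

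Smad1 and Smad5, the SMADs of the BMP branch, were lower in KO1 than in KO2, and Smad1 was also lower than in control cells. Smad1 was at 60.4 and 64.7 CPM in control libraries, at 38.0, 36.2 and 34.0 CPM in KO1 and at 51.1, 53.4, 55.3 and 54.7 CPM in KO2 (KO1 over KO2, -0.57 ± 0.12 SE, adjusted p = 0.0198; KO1 over control, -0.80 ± 0.14 SE, adjusted p = 0.00504). The libraries within each group were tightly placed. Smad5 was at 143 and 134 CPM in control libraries, at 84.9, 91.6 and 93.9 CPM in KO1 and at 141, 136, 131 and 261 CPM in KO2. Here 1 library, KO2 replicate 4, stood apart, and without it the difference of the clones was -0.59 against -0.89 ± 0.24 (SE, adjusted p = 0.0435) with all libraries. Leaving out any of the 3 KO1 libraries ended this call (adjusted p up to 0.145), and Smad5 did not pass in KO1 against control cells (adjusted p = 0.134).

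Bmp1 was at 486 and 552 CPM in control libraries, at 209, 206 and 245 CPM in KO1 and at 463, 547, 385 and 924 CPM in KO2. KO2 overlapped with control cells and KO1 with neither (KO1 over KO2, -1.40 ± 0.27 SE, adjusted p = 0.0161; KO1 over control, -1.24 ± 0.31 SE, adjusted p = 0.0202). Gdf11, a ligand that signals through activin receptors, was at 26.7 and 18.03 CPM in control libraries, at 32.3, 20.7 and 40.0 CPM in KO1 and at 67.6, 38.2, 51.9 and 59.2 CPM in KO2. It rose in KO2 against control cells (1.28 ± 0.32 SE, adjusted p = 0.0207), and the difference of the clones was -0.81 ± 0.27 (SE, adjusted p = 0.0840). Bmp7 was at 9.50 and 1.22 CPM in control libraries, at 0, 3.12 and 0.541 CPM in KO1 and at 202, 56.2, 14.2 and 0.102 CPM in KO2. The libraries of KO2 were spread over the whole range of the gene and overlapped with those of KO1 (KO1 over KO2, -5.90 ± 2.08 SE, adjusted p = 0.0957). With each KO library left out in turn this value ran from -8.19 to -4.32, and 2 of the 7 fits called it.

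The steps of Smad7, Acvr1, Id2 and Id3 also passed between the clones. Smad7 was lower in KO1 than in KO2 by a log2 fold change of -0.68 ± 0.13 (SE, adjusted p = 0.0149) and Id2 by -2.07 ± 0.32 (SE, adjusted p = 0.00713). For Id3 the value was -0.75 ± 0.21 (SE, adjusted p = 0.0466). For Acvr1 it was -0.54 ± 0.18 (SE, adjusted p = 0.0854), and only 1 of the 7 fits with a KO library left out kept that call. Skil and Acvr2a did not pass between the clones (log2 differences 0.06 ± 0.19 SE and -0.29 ± 0.19 SE, adjusted p = 0.855 and 0.324). With each library left out in turn, the log2 fold change between KO and control cells lay between -1.21 and -0.995 for Skil. For Acvr2a it lay between -1.42 and -1.29. A fit without 1 of the 2 control libraries has no spread within the control group, so a call kept there is weakly founded.

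Further genes of the same pathways were counted from lists written by symbol. Of 50 tested genes among 90 listed regulators and components, 11 passed between KO and control cells (22%, beside 22.6% of all tested genes). Of these 2 were higher (4% of the 50, beside 11.9%) and 9 lower (18%, beside 10.7%). Fewer passed without control replicate 1 or 2, as for all tested genes. Zfyve9, the SMAD anchor SARA, fell from 94.1 and 97.7 CPM in control libraries to between 33.9 and 54.4 CPM in KO libraries (log2 fold change -1.10 ± 0.17 SE, adjusted p = 0.00397). Pmepa1, a TGF-beta target that acts back on the pathway, fell from 261 and 259 CPM to between 103 and 161 CPM (-0.97 ± 0.17 SE, adjusted p = 0.00637). Usp11, a deubiquitinase of TGF-beta receptors, and Dand5, a secreted antagonist of the DAN family, fell as well (-1.68 and -1.34, adjusted p = 0.0748 and 0.0773). Usp9x, which deubiquitinates SMAD4, rose from 124 and 118 CPM to between 224 and 354 CPM (1.12 ± 0.21 SE, adjusted p = 0.00793). Fkbp1a, whose product FKBP12 binds type I receptors, also rose (0.65 ± 0.21 SE, adjusted p = 0.0646).

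Of 35 tested genes among 40 that TGF-beta is known to induce, 8 passed (22.9%, beside 22.6% of all tested genes). Of these 2 were higher (5.71% of the 35, beside 11.9%) and 6 lower (17.1%, beside 10.7%). Fewer passed without control replicate 1 or 2, as for all tested genes. Vegfa fell from 93.9 and 89.9 CPM in control libraries to between 8.52 and 35.5 CPM in KO libraries (-2.41 ± 0.43 SE, adjusted p = 0.00664). The matrix genes Postn and Col1a1 fell (-3.53 and -3.00, adjusted p = 0.0271 and 0.0132), and so did Itgb6, a subunit of the integrin that activates latent TGF-beta (-2.05, adjusted p = 0.0911). Timp1 rose from 25.8 and 25.2 CPM to between 38.9 and 69.4 CPM (1.03 ± 0.24 SE, adjusted p = 0.0187), and Adam19 rose by 3.45 ± 1.23 on the log2 scale (SE, adjusted p = 0.0877), from 7.16 and 4.03 CPM to between 9.75 and 14.1 CPM in KO1 and between 40.2 and 148 CPM in KO2. Of 12 tested genes among 20 that BMP is known to induce, beside the ID members, 1 passed (8.33%, beside 22.6%), and none without either control library. This was Id4, the remaining ID gene, which rose from 0.483 and 0.397 CPM to between 0.8293 and 4.07 CPM (2.26 ± 0.74 SE, adjusted p = 0.0669).

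Promoters of 32 of the 44 members were present in the RefSeq promoter table (GRCm38.p6). The 250 bases before each start were searched on both strands for CAGAC, the element bound by SMAD3 and SMAD4, for GGCGCC, a GC-rich element bound by BMP SMADs, for the palindrome GTCTAGAC, and for CANNTG, the E-box bound by bHLH factors. CAGAC occurred in 14 member promoters (43.8%) and in 42.1% of all 27025 promoters. GGCGCC occurred in 9 (28.1%, against 9.54% of all), CANNTG in 10 (31.2%, against 66.0%) and GTCTAGAC in none (0.174% of all). The member promoters had a higher GC content, with a median of 67.4% against 52% for all promoters, and the part of this in the motif shares was not tested.

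The promoters below belong to 4 members: Id2, which rose, Acvr2a and Ski, which fell, and Tgfbr2, which differed between the clones. They were picked by hand and do not stand for all members that changed. The promoters of Acvr1 and Inhbb, which also fell, hold neither CAGAC nor GGCGCC, and those of Id3 and Gdf15 hold CAGAC. Capitals mark GGCGCC or CAGAC, the latter also as its reverse complement GTCTG, and bases that GENCODE vM21 places in an exon were left out. The starts are those of RefSeq, and for Id2 the longest GENCODE transcript starts further upstream, so that the 89 bases shown lie in its first intron and before the start of shorter transcripts.
Id2, chr12:25096254-25096342, minus strand: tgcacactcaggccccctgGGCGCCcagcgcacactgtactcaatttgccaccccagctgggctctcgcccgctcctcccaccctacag
Acvr2a, chr2:48813859-48814108, plus strand: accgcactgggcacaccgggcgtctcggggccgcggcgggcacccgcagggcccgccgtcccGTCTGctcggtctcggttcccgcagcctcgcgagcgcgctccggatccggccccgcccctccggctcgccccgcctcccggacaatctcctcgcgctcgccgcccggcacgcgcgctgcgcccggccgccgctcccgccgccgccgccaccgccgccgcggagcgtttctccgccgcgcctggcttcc
Ski, chr4:155222593-155222785, minus strand: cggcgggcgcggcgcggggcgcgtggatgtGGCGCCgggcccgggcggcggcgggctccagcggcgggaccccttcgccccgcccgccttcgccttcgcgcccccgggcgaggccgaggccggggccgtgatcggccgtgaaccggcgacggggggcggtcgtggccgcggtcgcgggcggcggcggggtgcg
Tgfbr2, chr9:116175364-116175613, minus strand: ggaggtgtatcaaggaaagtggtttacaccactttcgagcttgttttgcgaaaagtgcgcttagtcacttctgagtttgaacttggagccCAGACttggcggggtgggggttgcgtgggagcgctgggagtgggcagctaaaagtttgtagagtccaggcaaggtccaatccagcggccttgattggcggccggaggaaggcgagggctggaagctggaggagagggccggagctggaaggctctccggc
Each of these 4 windows holds 1 marked element. A match of letters is a description of the sequence and not a measured binding site.

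The ChIRP peaks were used to ask whether chromatin recovered with MaTAR25 lay at these genes. The list of the total oligonucleotide pool in 4T1 cells held 76806 peaks. None of the 44 members had a peak within 1 kb of its gene start, beside 7.89% of 14949 tested genes with a position. With the window widened to 5 kb, 8 members (18.2%) had one, beside 31.6%. Inside the gene, 28 members (63.6%) had a peak, beside 51.5% of tested genes, and the members were longer genes, with a median of 36.1 kb against 18.7 kb. Because the authors pooled replicates before calling peaks, these shares have no replicate error and were not tested.

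**Figure D5:**
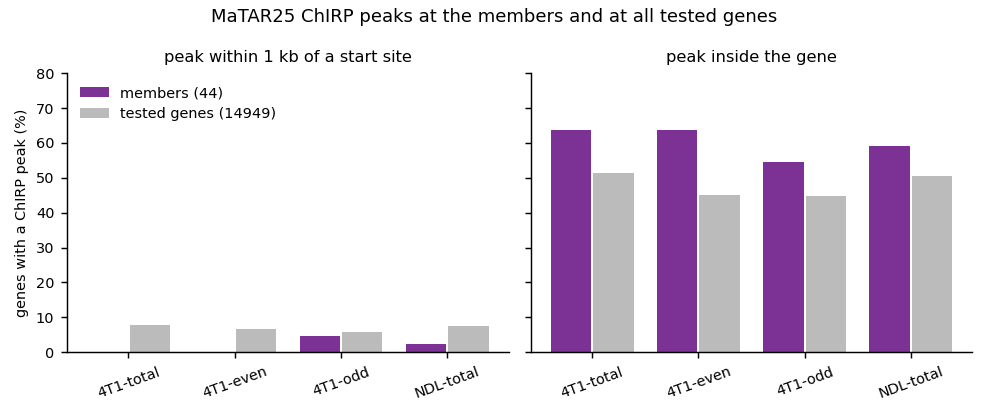
Percentage of the 44 genes and of all 14949 tested genes with a ChIRP peak within 1 kb of the gene start (left) or inside the gene (right), in the total, even and odd oligonucleotide pools of 4T1 cells and the total pool of MMTV-Neu-NDL cells. At start sites the 44 genes lie at 0%, 0%, 4.55% and 2.27%, below the tested genes in each list, and inside genes they lie between 54.5% and 63.6%, above them.

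In the list of the odd oligonucleotide pool Bmp4 and Smad5 had a peak within 1 kb of the start, in that of MMTV-Neu-NDL cells Smurf1, and in that of the even pool no member. A peak inside the gene was found in all 4 lists for 19 members and in none for 12. Of the 105 peaks inside members in the total pool of 4T1 cells, 94 were annotated by the authors as intronic, in 24 members, 5 as exonic and 1 as lying at a transcript end. Another 5, in Acvr1, Acvr2b, Ltbp1, Smad2 and Tgfb3, were annotated by the authors as promoter peaks although they lay over 1 kb from the gene start used here, and Ltbp1 held the most, 18. Of the 12 members that passed between KO and control cells 7 held a peak (Acvr1, Acvr2a, Id3, Ski, Skil, Tgfb3 and Tgfbr3), and of the 28 tested members that did not pass 20 held one. Id1, Id2, Smad7, Inhbb and Gdf15 changed without a peak in the gene in this list. The list of the even pool holds no peak on chromosome 3, where Skil lies.

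Among the peaks of members in the 4T1 total-pool list, the highest score belonged to a peak in an intron of Skil, at chr3:31112884-31113635, 18201 bp from the gene start to its midpoint, with a HOMER score of 466.6 and rank 1096 in the list. It is shown because of this score. Capitals mark the 13 bases, at 31113106 to 31113118, that match the reverse complement of oligonucleotide 5 against MaTAR25, which is given below it with the same bases in capitals.
Skil, chr3:31112962-31113261, plus strand: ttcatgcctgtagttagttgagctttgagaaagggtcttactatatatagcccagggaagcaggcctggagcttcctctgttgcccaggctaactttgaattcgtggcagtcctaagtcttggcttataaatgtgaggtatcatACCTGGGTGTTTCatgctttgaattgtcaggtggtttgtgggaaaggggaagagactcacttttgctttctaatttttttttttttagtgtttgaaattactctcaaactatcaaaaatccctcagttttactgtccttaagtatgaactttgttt
Oligonucleotide 5: gaaagGAAACACCCAGGTca
Matches of at least 12 bases to 1 of the 14 oligonucleotides occurred in 35 of the 105 peaks inside members (33.3%) and in 24.2% of all peaks of the list. The peaks inside members were longer, with a median of 625 bp against 500 bp. Whether such matches contribute to the recovery of a region was not tested.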

How the data were processed

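The deposited RNA-seq values are raw counts per gene. The authors obtained them with STAR (GRCm38, single-end reads) and HTSeq (GENCODE vM5). Strand-specific counting was not stated, so genes that overlap on opposite strands are uncertain. The file of KO2 replicate 2 repeats every gene 3 times with equal values, of which 1 was taken. Between 33.9 and 37.0% of the counts of a library fell outside genes and were left out. For 44585 genes a symbol was found in the annotation. The deposited ChIRP values are peak scores of HOMER, called by the authors on pooled replicates against a control pulldown after mapping with Bowtie2.

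Counts were tested in R 4.3.3 with edgeR 4.0.16 (TMM, filterByExpr, quasi-likelihood test, Benjamini-Hochberg adjustment over all tested genes, threshold 0.1), with the KO libraries as 1 group or in a 3-group fit. The study used DESeq2 (here 1.42.0), which is an alternative. The other alternatives were RLE size factors, testing all genes with any count, a minimum of 10 counts per library, an adjusted p of 0.05, the replicate number as a block, the 3-group fit, only the groups compared and each library left out in turn. For the peaks they were a score of at least 100, a window of 5 kb and the other lists. The fits were tested on simulated data, in which DESeq2 made more false calls than edgeR in every comparison and more than its threshold allows. The simulation gave every gene the same dispersion, unlike the real data, so it cannot rank the tools for these libraries. Replicate numbers were not treated as pairs. Positions and exon lengths are those of GENCODE vM21, and peaks were matched in Python 3.11.15 by an overlap of at least 1 base.

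The members, the gene lists and the tests were chosen with earlier results of these data known. Values in every library are given for members that passed between KO and control cells or between the clones and for Tgfb1, Tgfbr1, Tgfbr2 and Smad3. From each further list, the genes named passed the test, averaged 1 CPM or more and had no overlap of libraries (up to 4 in each direction, by size of change). Values of other members were added after they had been seen. Intervals of count ratios are exact at a confidence level of 95% and cover counting error only.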

Additional observations from a re-analysis of the deposited data

Results flagged for a closer look

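The difference of the effects in KO1 and KO2 passed the edgeR test for 13 members. The log2 fold change against control was higher in KO1 than in KO2 by 3.34 for Tgfbr3, 2.69 for Fst, 1.21 for Ltbp2 and 1.09 for Tgfbr2. It was lower in KO1 for the other 9, with differences of -5.90 for Bmp7, -2.07 for Id2, -1.40 for Bmp1, -0.89 for Smad5, -0.81 for Gdf11, -0.75 for Id3, -0.68 for Smad7, -0.57 for Smad1 and -0.54 for Acvr1.

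Single libraries stood far from the others of their group in 6 of 46 combinations of a named member and a group (13%). The groups were KO2 and all KO libraries, which include KO2, so Smad5 and Inhbb entered in both with the same library. The combinations are thus not independent, and the KO group mixes both clones. The share therefore cannot be set against the 5% or so that chance would give for independent combinations. KO2 replicate 4 was highest for Smad5, at 261 CPM against 131 to 141 CPM in the other KO2 libraries and at most 141 CPM in all other KO libraries. The same library was highest for Inhbb, at 3.33 CPM against 0.253 to 0.418 CPM in the other KO2 libraries and at most 1.30 CPM in all other KO libraries. KO2 replicate 1 was highest for Bmp7, at 202 CPM against at most 56.2 CPM. KO1 replicate 1 was lowest for Tgfbr1, at 55.6 CPM against 78.9 to 92.6 CPM in the other KO libraries.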

How the results depend on the processing

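There were 2 control libraries, and the members called between KO and control cells ranged from 2 to 16 with each library left out in turn, from 8 to 15 in KO1, from 5 to 16 in KO2 and from 7 to 19 between the clones. The share of all tested genes called in these fits ran from 2.95 to 26.4% between KO and control cells and from 9.46 to 24.5% in KO1. It ran from 8.72 to 35.7% in KO2 and from 5.79 to 27.5% between the clones. In the fits of KO against control cells 3 to 10 other pathway genes, 1 to 10 TGF-beta induced genes and 0 to 2 BMP induced genes were called. The log2 fold change of MaTAR25 (1200007C13Rik) ranged from -2.97 to -2.41 in them. With only control and KO1 libraries in the fit, 29 members were called in KO1, in a fit that called 54.05% of all genes it tested. Between KO and control cells the main fit called 12 members and 22.58% of all tested genes. In the 3-group fit 18 members, 16 TGF-beta induced and 2 BMP induced genes were called, beside 33.08% of all tested genes. With DESeq2 15 members and 3 BMP induced genes were called, beside 25.81%. At an adjusted p of 0.05, 8 members, 5 other pathway genes and 0 BMP induced genes were called, beside 14.88%. MaTAR25 was not called there (-2.63, edgeR adjusted p = 0.0561). The replicate numbers shared between groups did not pair the libraries, since the correlations of same-numbered libraries ran from -0.20 to 0.06. With the replicate block 8 members, 5 other pathway genes, 5 TGF-beta induced genes and 0 BMP induced genes were called, beside 12.99% of all tested genes. MaTAR25 was at -2.45 in that fit (edgeR adjusted p = 0.234). Members with a peak within 1 kb of the start, 0 in the main list, were 8 with a window of 5 kb, 2 in the odd pool and 1 in MMTV-Neu-NDL cells. Of 1017 fold changes of single genes under an alternative, none changed sign and 826 kept their side of the threshold, while 187 lost a call, 72 of them without a control library, 60 without a KO library, 22 at an adjusted p of 0.05 and 21 with the block. DESeq2 lost 1 call and RLE size factors none. MaTAR25 could not be fitted with at least 10 counts in every library. Over all genes, the calls between KO and control cells fell from 3392 to 462 and 574 without a control library, to 1952 with the block and to 2235 at an adjusted p of 0.05. The cause of these changes was not tested.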

Other observations

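The further gene lists were also counted by clone. Of the 50 tested regulators and components beside the 44 genes, 13 passed in KO1 against control cells (26%, beside 31.6% of all tested genes). There 3 were higher (6%, beside 15.9%) and 10 lower (20%, beside 15.7%). In KO2 14 passed (28%, beside 31.4%), 4 higher (8%, beside 16.5%) and 10 lower (20%, beside 15%). Between the clones 11 of them passed (22%, beside 19.6%), 3 higher in KO1 (6%, beside 9.43%) and 8 lower (16%, beside 10.2%). Of the 35 tested genes that TGF-beta is known to induce, 14 passed in KO1 (40%, beside 31.6% of all tested genes). There 5 were higher (14.3%, beside 15.9%) and 9 lower (25.7%, beside 15.7%). In KO2 15 passed (42.9%, beside 31.4%), 5 higher (14.3%, beside 16.5%) and 10 lower (28.6%, beside 15%). Between the clones 14 of these 35 passed (40%, beside 19.6%), with a median log2 fold change of -0.14. In each direction there were 7 (20%, beside 9.43% higher in KO1 and 10.2% lower). Of the 12 tested genes that BMP is known to induce, 1 passed in KO1 (8.33%, beside 31.6%), where it was lower (15.7% of all tested genes were). In KO2 3 passed (25%, beside 31.4%), all of them higher (16.5% of all tested genes were). Between the clones 4 of the 12 passed (33.3%, beside 19.6%), all lower in KO1 (10.2% of all tested genes were), and the median was -0.75.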
